A study of Mus musculus with 2 samples.

Results

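The 42 genes described here code for the secreted Wnt ligands (19 genes), their Frizzled receptors (10 genes), 9 intracellular effectors and 4 secreted Dickkopf inhibitors. They were taken by symbol from the 20722 autosomal protein-coding genes of the GENCODE M21 mouse annotation that have a protein-coding transcript, by a rule on symbols that uses no measured value. The effectors were the Dishevelled genes Dvl1, Dvl2 and Dvl3, the scaffold genes Axin1 and Axin2, and the DNA-binding TCF/LEF factors Lef1, Tcf7, Tcf7l1 and Tcf7l2. The inhibitors Dkk1 to Dkk4 were kept apart because their proteins act outside the cell.

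The assay was DNase-seq, which reads out accessible chromatin from the places where DNase I cuts DNA that nucleosomes leave exposed. The series had 1 group, hippocampus of male B6CASTF1/J mice aged 2 months (a first-generation hybrid of B6 and CAST), with biological replicates 1 and 2. The labels speak of a layer of hippocampus without naming it. The replicates have separate biosamples and 1 common donor entry, and no label says whether they were separate animals, so their differences may be partly technical. Cells of the tissue were read together, so a promoter accessible in few cells and one weakly accessible in many cannot be told apart. Both parental alleles were placed on 1 reference. With no second group there was no test, and each count stands beside the same count over all genes.

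Wnt proteins bind a Frizzled receptor together with a co-receptor of the Lrp family, and Dickkopf proteins block that co-receptor. In the canonical branch, Dishevelled then disables the complex in which Axin and its partners mark beta-catenin for destruction, and beta-catenin enters the nucleus and works with TCF/LEF factors. In the mouse, Wnt signals from the edge of the embryonic cortex build the hippocampus, and in the adult the pathway is known for roles in granule cell production and at synapses.

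The deposited lists held 132685 peaks and 255536 footprints in replicate 1, against 59880 peaks and 111355 footprints in replicate 2. A peak is a stretch called accessible, and its height is the authors' signal value, with its scaling not given in the sources used here. Where a pair of heights is given for a site, they are those of replicates 1 and 2. A footprint is a short protected stretch within accessible DNA. On the autosomes 49472 shared peaks were found, each being the overlap of peaks from both replicates, with median heights of 1.5 in replicate 1 and 1.1 in replicate 2. Among markers of the tissue, 3 of 4 genes of hippocampal excitatory neurons, 2 of 4 of astrocytes and 2 of 3 of oligodendrocytes had an open promoter. The counts were 0 of 4 each for microglia and endothelium, 0 of 3 for choroid plexus and 0 of 2 for liver, against 58.2% of all genes. Shared peaks over 2500 bp from every start, in the gene or within 10 kb, lay at 2 of 4 microglial and 3 of 4 endothelial genes. Such peaks lay at 4 of 4 neuronal, 3 of 4 astrocyte, 2 of 3 oligodendrocyte, 0 of 3 choroid plexus and 0 of 2 liver genes, against 41.8% of all genes. The dentate granule cell factor Prox1 had a promoter peak of 1.7 in replicate 1 and none in replicate 2.

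The receptors and effectors mostly had open promoters, and the ligands mostly did not. A promoter was called open where a shared peak touched the 500 bp on either side of any protein-coding start. By this rule 7 of 10 receptors (70%) and 7 of 9 effectors (77.8%) were open, but only 3 of 19 ligands (15.8%) and 0 of 4 inhibitors, against 58.2% of all autosomal protein-coding genes. Over the 42 genes together the count was 17 (40.5%). The ligand share thus lay far below that of all genes, and the receptor and effector shares, on 10 and 9 genes, above it. Among all genes whose promoter GC content fell in the range of the receptors, 83.2% were open, more than the receptors. The same share was 72.5% in the range of the effectors and 75.4% in that of the ligands.

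**Figure D1:**
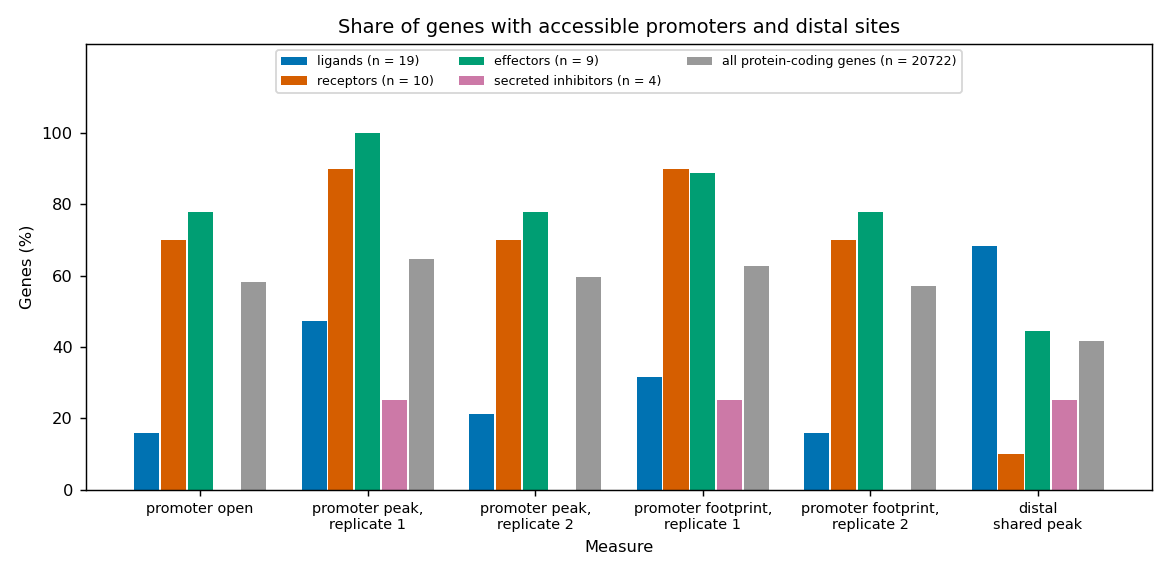
Percentage of genes (y axis) in each class with an open promoter, a promoter peak or footprint in each replicate, and a distal shared peak (x axis), for 19 ligands, 10 receptors, 9 effectors, 4 secreted inhibitors and all 20722 genes (grey). Ligand bars lie below the grey bars at promoters (15.8% open against 58.2% of all genes) and are the highest at distal sites (68.4% against 41.8%).

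The single replicates showed the same order of classes at different levels. Promoter peaks of replicate 1 lay at 9 ligands, 9 receptors, 9 effectors and 1 inhibitor, against 64.6% of all genes. For replicate 2 the counts were 4 ligands, 7 receptors, 7 effectors and 0 inhibitors, against 59.6% of all genes. The 10 members with a promoter peak in replicate 1 only were Wnt1, Wnt2b, Wnt5a, Wnt7b, Wnt11, Fzd2, Fzd6, Lef1, Tcf7 and Dkk3, and no member had one in replicate 2 only. Of all 20722 genes, 1172 had a promoter peak in replicate 1 only and 145 in replicate 2 only. From replicate 1 to replicate 2 the share thus fell from 47.4% to 21.1% of ligands, 90% to 70% of receptors and 100% to 77.8% of effectors. When peaks had to overlap by 50% of both, 6 receptors, 3 effectors and 1 ligand counted as open, against 44.7% of all genes, so that the effectors no longer lay above the background.

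Among the ligands, the Wnt7a promoter was the highest in both replicates. Wnt7a, whose protein is known to promote synapse formation, had a height of 3.42 in replicate 1 and 2.14 in replicate 2. Its highest shared peak was centred 528 bp upstream of its single start, just outside the window, so that only its nearer end lay within. The peak stood inside an exon of the unclassified transcript Gm30437, so it may belong to either. The nearer shared peak lay 258 bp from the start, so Wnt7a was not open with a 200 bp window. Wnt16 had heights of 0.888 and 0.656, and Wnt5b, a ligand known for signalling outside the beta-catenin branch, had 0.417 and 0.721. At most 12.6% of the genes with a promoter peak had a lower one than these, in either replicate. The Wnt5b peak lay at the most upstream group of starts, while its starts 77136 and 94961 bp downstream had no peak.

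The Wnt7a sequence is shown because it is the highest ligand promoter peak, and capitals mark bases inside footprints of both replicates, which number 38 in 6 runs. It is read from GRCm38 (mm10) at chr6:91411821-91411960, on the minus strand as Wnt7a is transcribed.
Wnt7a promoter: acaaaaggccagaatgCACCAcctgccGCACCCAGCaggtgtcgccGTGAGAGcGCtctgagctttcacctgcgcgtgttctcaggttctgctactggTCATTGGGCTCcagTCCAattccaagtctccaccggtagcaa

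The other ligands had weak or unshared promoter peaks, or none. Wnt2 had a height of 0.396 in replicate 1 and 0.624 in replicate 2, but these peaks did not overlap each other. The heights in replicate 1, with no peak in replicate 2, were 1.08 for Wnt1, 0.861 for Wnt7b, 0.62 for Wnt11, 0.46 for Wnt2b and 0.449 for Wnt5a. Wnt1 is best known for patterning the midbrain, and Wnt5a and Wnt11 for signals outside the beta-catenin branch. For Wnt7b, Wnt11 and Wnt5a the peak stood at an internal start, 4403, 3733 and 6655 bp downstream of the first, and the first start had no peak in either replicate. In replicate 2 the Wnt7b and Wnt11 windows still held intervals in the deposited false discovery rate (FDR) list, at lowest values of 0.0303 and 0.0432.

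No promoter peak was present in either replicate for 10 of the 19 ligands, against 7191 of all 20722 genes. The 10 were Wnt3, Wnt3a, Wnt4, Wnt6, Wnt8a, Wnt8b, Wnt9a, Wnt9b, Wnt10a and Wnt10b. Wnt3a is needed in the mouse embryo for the hippocampus to form, and Wnt8b is expressed at the embryonic cortical edge from which the structure grows. In none of these 10 did the promoter window contain 1 base of the deposited FDR intervals, which reach up to 0.0499 in replicate 1 and 0.05 in replicate 2. No weaker listed signal stood in place of the missing peaks. The same held for Fzd10, Dkk1, Dkk2 and Dkk4.

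**Figure D2:**
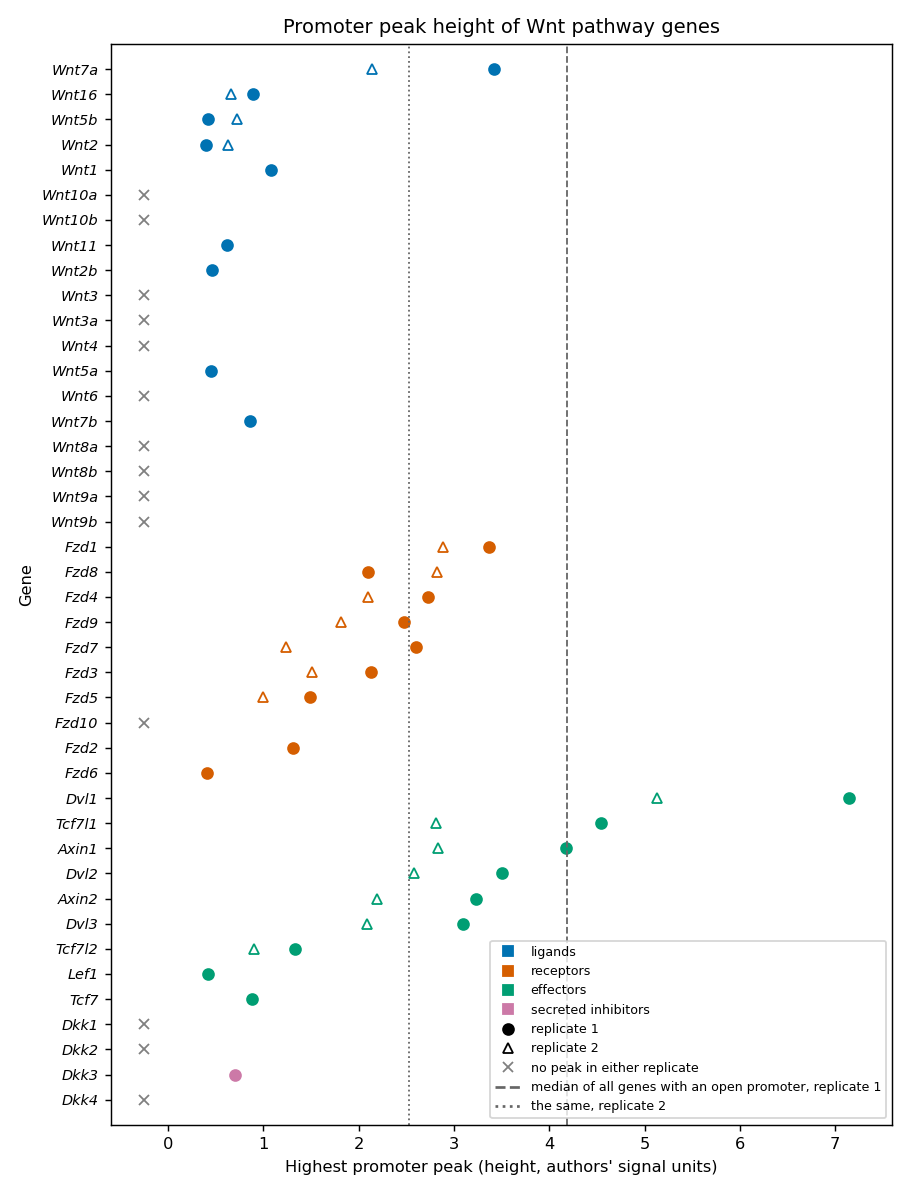
Height of the highest promoter peak (x axis, authors' signal units) for each of the 42 genes (y axis), with filled circles for replicate 1, open triangles for replicate 2 and grey crosses left of 0 where neither replicate had a peak. Most receptors and effectors have both symbols, between 0.904 and 7.14, while most ligands have a cross or a single circle at or below 1.08; the vertical lines are the medians of all open promoters, 4.18 in replicate 1 and 2.53 in replicate 2.

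Frizzled receptor promoters were open at heights of 1.49 to 3.37 in replicate 1 and 1 to 2.88 in replicate 2. Fzd1 was the highest by its mean, at 3.37 in replicate 1 and 2.88 in replicate 2. Fzd8 had 2.1 and 2.82 and was the one open receptor with the greater height in replicate 2. Fzd4, which also serves as the receptor of Norrin in retinal vessels, had 2.73 and 2.1, but its start lies within 1 kb of that of the divergent gene Tmem135, and the shared peak cannot be given to one of them. The remaining open receptors were Fzd9 (2.47 and 1.81), Fzd7 (2.6 and 1.24), Fzd3, known for axon guidance (2.13 and 1.51), and Fzd5 (1.49 and 1).

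The receptor median over the 7 open promoters was 2.47 in replicate 1 and 1.81 in replicate 2, below the medians of all open promoters, 4.18 and 2.53. Intervals of the deposited FDR list covered a median of 72.6% of the promoter window of the open receptors in replicate 1 and 81.7% in replicate 2, against 53.8% and 50.8% for all open genes and 73.4% and 72% for open genes with a CpG-rich promoter (at least 55% GC and an observed to expected CpG ratio of at least 0.6), which all 10 receptors have. In Fzd1 and Fzd4 the listed intervals filled the whole window in replicate 2. Of these 7 receptors 6 have 1 annotated start, and among all genes with a single start 45.2% were open.

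Fzd2 and Fzd6 had promoter peaks in replicate 1 only, of 1.31 and 0.412, and Fzd10 had none. The Fzd2 window reached an FDR of 4.7e-11 in replicate 1 and had no listed interval in replicate 2, and it was the lowest FDR among the members with none in replicate 2. Fzd6, which acts with Fzd3 in the planar orientation of cells, reached 0.00947 in replicate 1 and 0.0427 in replicate 2. Fzd10 was the only receptor with no promoter peak in either replicate. Its window was as rich in GC as that of Fzd7, 68.3% in both.

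The Fzd1 promoter sequence is the highest receptor peak, with 12 bases inside footprints of both replicates in capitals, read from GRCm38 at chr5:4757961-4758240 on the minus strand. It holds 25 CG dinucleotides in 280 bases.
Fzd1 promoter: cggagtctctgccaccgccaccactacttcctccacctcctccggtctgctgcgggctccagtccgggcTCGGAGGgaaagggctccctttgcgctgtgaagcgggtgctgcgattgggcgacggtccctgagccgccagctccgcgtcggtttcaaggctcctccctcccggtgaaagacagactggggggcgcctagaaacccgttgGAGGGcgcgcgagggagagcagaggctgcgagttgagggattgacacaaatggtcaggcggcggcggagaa

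The highest promoter of the 42 genes belonged to an effector. Dvl1 had a height of 7.14 in replicate 1 and 5.13 in replicate 2, higher than 85.2% and 97.4% of the genes with a promoter peak. Tcf7l1, a TCF factor known mainly as a repressor, had 4.54 and 2.81, and the scaffold gene Axin1 had 4.17 and 2.83. Dvl2 had 3.5 and 2.58, and Dvl3 had 3.09 and 2.09, so all 3 Dishevelled genes were open, with Dvl1 the highest in each replicate. Axin2, a classical target that the pathway itself induces, had 3.23 and 2.19. The median over the 7 open effectors was 3.5 in replicate 1 and 2.58 in replicate 2, against 4.18 and 2.53 for all open promoters.

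The 4 TCF/LEF factors were not all open, unlike the Dishevelled genes. Beside Tcf7l1, Tcf7l2 was open at 2 places, its first starts with heights of 1.33 and 0.904 and a group of starts 152714 bp downstream with 0.444 and 0.732. Tcf7 had a peak of 0.877 in replicate 1 and none in replicate 2. Lef1, which mice need to make dentate granule cells, had 0.417 in replicate 1 and none in replicate 2, at its internal start 2326 bp downstream. The lowest FDR in replicate 1 was 5.07e-08 at Tcf7 and 0.0278 at Lef1, so the Lef1 peak was near the limit of the list.

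The promoter sequences of Dvl1 and Axin2 are given on the plus strand from GRCm38, the first (chr4:155847281-155847480) as the highest effector peak with 24 bases inside footprints of both replicates in capitals. The second (chr11:108920241-108920480), chosen after its values were seen, is the promoter peak that holds a TCF/LEF word, which stands in capitals.
Dvl1 promoter: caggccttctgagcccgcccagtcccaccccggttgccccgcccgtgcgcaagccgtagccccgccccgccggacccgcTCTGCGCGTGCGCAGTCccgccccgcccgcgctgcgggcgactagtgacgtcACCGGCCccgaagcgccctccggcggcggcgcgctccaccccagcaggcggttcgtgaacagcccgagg
Axin2 promoter: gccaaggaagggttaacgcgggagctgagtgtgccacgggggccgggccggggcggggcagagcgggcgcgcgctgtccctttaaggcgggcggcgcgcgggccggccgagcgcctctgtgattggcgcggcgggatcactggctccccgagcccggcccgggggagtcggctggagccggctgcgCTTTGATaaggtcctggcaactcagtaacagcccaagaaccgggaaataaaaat

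Among the inhibitors, Dkk3 had a promoter peak of 0.701 in replicate 1 and none in replicate 2, and Dkk1, Dkk2 and Dkk4 had none. The 4 windows had the lowest CpG content of the classes, with a median observed to expected ratio of 0.435. Their count of 0 open promoters rests on 4 genes.

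Footprints followed the peaks and were not independent of them. Of all open genes 98.9% had a promoter footprint in replicate 1 and 96.5% in replicate 2. In replicate 1 a promoter footprint lay at 6 ligands, 9 receptors, 8 effectors and 1 inhibitor, against 62.6% of all genes. In replicate 2 it lay at 3 ligands, 7 receptors, 7 effectors and 0 inhibitors, against 57% of all genes. Each replicate had one at 2 ligands, 7 receptors and 7 effectors (56.2% of all genes), and these overlapped between the replicates at 2, 6 and 5 genes (48% of all genes). Among single genes, Axin2 had the most, with 12 in replicate 1 and 13 in replicate 2 over its 5 starts, but 1 that overlapped, while Tcf7l1 had 4 that overlapped.

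Most ligand promoters were CpG-rich, as were those of all receptors. CpG-rich promoters are usually accessible in any tissue, and here 90.2% of the genes with a CpG-rich window were open. Of the 14 ligands with such a window 2 were open (14.3%), against 7 of 10 receptors (70%) and 6 of 8 effectors (75%). Receptors and effectors thus also lay below the 90.2%, though by less than the ligands. Median GC was 63% in ligands, 65.9% in receptors and 63.9% in effectors, all above the 53.7% of all genes. The median CpG ratio was lower in ligands, at 0.67 with a minimum of 0.254, than in receptors, at 0.805 with a minimum of 0.604, and was 0.757 in effectors and 0.519 in all genes. The part of base composition in the class difference was not tested. Wnt4 had the highest GC of all 42 windows, 79.8%, and no peak in either replicate.

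**Figure D3:**
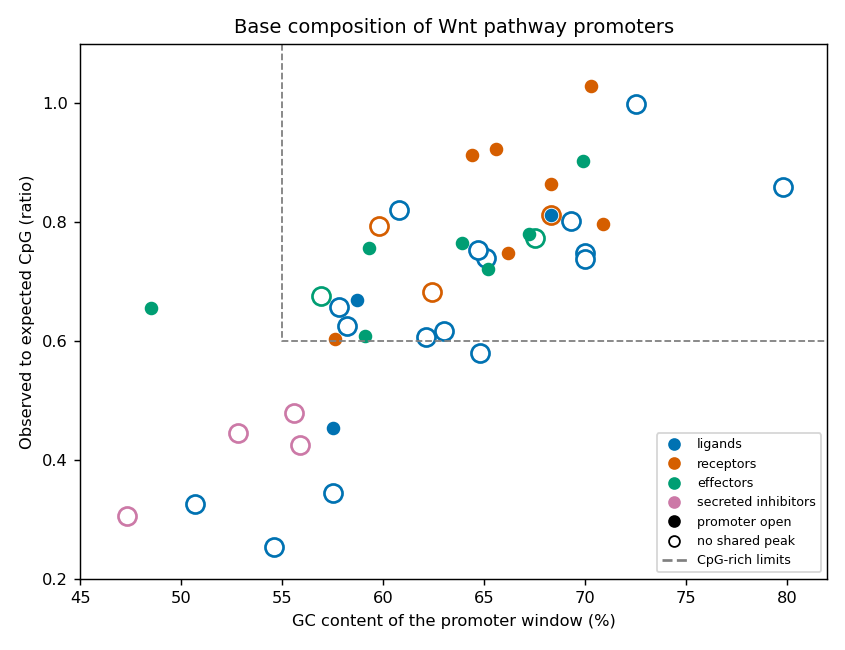
GC content (x axis, percent) and observed to expected CpG ratio (y axis) of the promoter windows of the 42 genes, coloured by class, with small filled symbols for open promoters and large hollow symbols for promoters with no shared peak. Dashed lines bound the CpG-rich corner, where 12 of the 14 ligands are hollow and 7 of the 10 receptors are filled; Wnt7a and Fzd10 fall on the same point.

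The number of starts gave a similar picture. Of the 11 ligands with 1 start, 1 was open (9.09%), against 6 of 8 such receptors (75%) and 45.2% of all such genes. Among ligands with several starts 2 of 8 were open, against 65.8% of all such genes.

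Wnt9a is shown as the ligand window with the highest CpG ratio, 0.999, and no promoter peak, in the RefSeq promoter of GRCm38.p6 at chr11:59306680-59306979, plus strand. Capitals mark its 58 CG dinucleotides, and 83.3% of the 300 bases are G or C. It was chosen after values were seen.
Wnt9a promoter: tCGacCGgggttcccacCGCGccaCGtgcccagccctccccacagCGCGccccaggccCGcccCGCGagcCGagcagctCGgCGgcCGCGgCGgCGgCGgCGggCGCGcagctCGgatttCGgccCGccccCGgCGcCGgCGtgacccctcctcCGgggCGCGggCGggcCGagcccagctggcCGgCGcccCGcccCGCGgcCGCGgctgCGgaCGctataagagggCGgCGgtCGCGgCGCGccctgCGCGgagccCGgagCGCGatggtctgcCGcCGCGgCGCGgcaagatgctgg

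For 4 of the 16 ligands without an open promoter, a shared peak lay just outside the window, 500 to 2500 bp from a start, against 8.86% of all genes without an open promoter. Wnt7b had 2 such sites upstream of its main starts, in an exon of the antisense transcript AU022754, with heights of 3.42 and 2.09 at the nearer (768 bp) and 3.15 and 1.52 at the farther (1231 bp). Wnt11 had one 774 bp upstream of its internal start, in an intron, with 3.01 and 1.51. At Wnt9a the site lay in an intron, 1055 bp downstream, with 2.77 and 1.55. Wnt2 had a weak one 1332 bp upstream, with 0.513 and 0.516. The Wnt7b sites came near the Wnt7a promoter in height. With a window of 2000 bp on either side 7 of 19 ligands were open, against 61.3% of all genes.

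Receptors also had sites in this zone, most of them in their own exons. At 5 of the 7 open receptors, against 28% of all open genes, 9 shared peaks lay 500 to 2500 bp from the start. Of these 7 were inside an exon of the receptor gene itself, against 22% of such peaks at all open genes, and Fzd1, Fzd7 and Fzd8 are annotated as single-exon genes. Fzd8 had the highest, 1418 bp downstream, with 3.18 in replicate 1 and 2.43 in replicate 2, and a second 1868 bp downstream with 1.56 and 1.91. Fzd1 had 3 such sites between 1074 and 1834 bp, the highest with 0.888 and 1.44, Fzd7 had 1 with 1.68 and 1, and Fzd5 had 1 with 0.503 and 0.871. Among effectors, Axin2 had an intronic site 2230 bp downstream of its last start with 4.55 and 2.16, higher in replicate 1 than its promoter.

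Ligand genes had distal sites more often than receptors. A distal site was a shared peak over 2500 bp from every protein-coding start and within the gene body or 10 kb of it. Sites were given to genes by this span alone, so they may belong to other genes. The nearest protein-coding start was a member's for 30 of the 40 distinct sites. The only Wnt1 site was nearest to the start of Ddn, the only Tcf7 site to Skp1a, and most Tcf7l1 sites to Tgoln1. At least 1 was present at 13 of 19 ligands (68.4%), 1 of 10 receptors, 4 of 9 effectors and 1 of 4 inhibitors, against 41.8% of all genes. Ligand spans were not long, with a median of 42.2 kb against 37.6 kb for all genes, and among genes whose spans fell in the ligand range 40.2% had a distal site. Receptor spans were shorter, at a median of 25.3 kb, and 36.3% of genes in their range had one. The ligand share lay near the background under some other settings: 5 of 19 in the shorter peak lists, against 25.4% of all genes, and 6 of 19 within gene bodies alone, against 26%. It stayed above the background under others. These gave 12 of 19 when peaks had to overlap by 50% of both (35.2% of all genes), 14 of 19 at over 1000 bp from starts (47.2%) and 15 of 19 with replicate 2 alone (44.4%). The receptor count was 6 of 10 with replicate 1 alone, against 68.1% of all genes and 16 of 19 ligands, and 7 of 10 with a 50 kb flank, against 71.9% and 17 of 19 ligands.

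Ligands without an open promoter often had distal sites. Of the 16 ligands without an open promoter 10 had a distal site (62.5%), against 30.4% of all genes without one and 46.6% of those whose GC fell in the ligand range. At 7 of these the site lay upstream, between 3498 and 9140 bp from the start. Taking promoter, near and distal sites together, 15 ligands, 7 receptors, 8 effectors and 1 inhibitor had a shared peak, 31 of 42 members, against 72.8% of all genes. The 4 ligands with none were Wnt3, Wnt4, Wnt8b and Wnt10b.

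**Figure D4:**
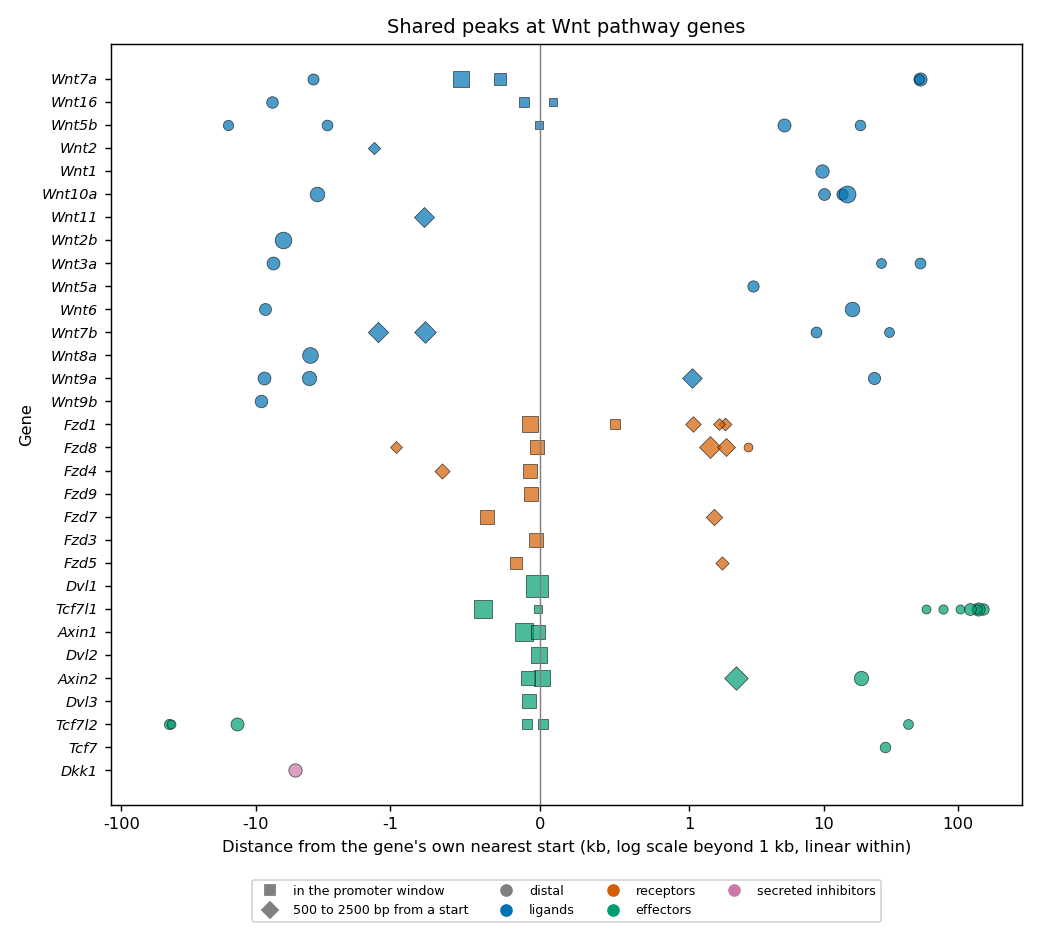
Position of shared peaks relative to the gene's own nearest start (x axis, kb, negative upstream, log scale beyond 1 kb and linear within) for the 31 genes with at least 1 (y axis), squares in the promoter window, diamonds 500 to 2500 bp away, circles distal, with area growing with mean height. Receptors are confined to squares and diamonds near 0 except 1 circle at Fzd8, while most ligands show circles and no square; a site between neighbouring genes is drawn for both.

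In all, 40 distinct distal sites were found, of which 18 were intronic, 4 exonic and 18 intergenic, against 65.2%, 15.8% and 19% of the distal shared peaks in the span of any gene. Their median heights were 1.47 in replicate 1 and 0.974 in replicate 2, against 1.28 and 0.871 for all 27632 distal shared peaks. A footprint of both replicates lay in 24 of them, against 46.3% of all distal shared peaks, and in 12 of the 24 promoter shared peaks, against 57.8% of all. By number, Tcf7l1 led with 7 sites in its introns (0.562 to 2.42 in replicate 1 and 0.495 to 1.31 in replicate 2), all within its 183 kb span. Wnt5b, Wnt10a and Tcf7l2 had 4 each.

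By density, Wnt10a, a ligand of tooth and hair development, came first with 12.2 distal sites per 100 kb, then Wnt9a with 6.43 and Wnt6 with 5.98. These 3 genes had no promoter peak in either replicate. Summed over each class, density was 2.94 for ligands, 0.292 for receptors, 1.61 for effectors and 0.444 for inhibitors, against 1.33 for all genes.

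The highest distal sites were mostly at ligands. Wnt10a had the highest by mean height, 14958 bp downstream of its start and past its end, with 4.45 in replicate 1 and 2.41 in replicate 2. Wnt2b had one 6250 bp upstream with 4.52 and 2.11. At Wnt8a a site 3952 bp upstream had 4.64 and 1.17, the largest ratio between the replicates among these. All 3 are intergenic, and their genes had no shared promoter peak. The next were a site between Wnt6 and Wnt10a, 3498 bp upstream of Wnt10a, with 3.74 and 1.11, and one at an exon of Axin2 18860 bp downstream of its start, with 3.21 and 1.44.

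Pairs of neighbouring ligand genes shared sites in part. Wnt6 and Wnt10a stand 6.19 kb apart on chromosome 1, and the site between them counted for both. Wnt3a and Wnt9a, 16.2 kb apart on chromosome 11, also shared 1 site, with heights of 2.56 and 0.99. The pairs Wnt9b with Wnt3 (24.3 kb) and Wnt10b with Wnt1 (11.7 kb) shared none.

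Sequences of 4 of these distal sites follow from GRCm38, with bases inside footprints of both replicates in capitals, because they are among the 5 highest distal sites of the 42 genes; the Wnt8a site, higher than 2 of the printed ones by mean height, is left out. The Wnt10a sites are chr1:74808221-74808420 and chr1:74787941-74788095 (plus strand), the Wnt2b site is chr3:104968081-104968260 (minus strand) and the Axin2 site, which spans the end of a coding exon, is chr11:108942001-108942080 (plus strand). They were chosen after values were seen.
Wnt10a, downstream: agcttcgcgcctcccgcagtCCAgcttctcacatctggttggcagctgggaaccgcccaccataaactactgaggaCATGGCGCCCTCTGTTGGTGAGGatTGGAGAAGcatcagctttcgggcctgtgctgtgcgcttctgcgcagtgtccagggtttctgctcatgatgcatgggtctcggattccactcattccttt
Wnt10a, upstream: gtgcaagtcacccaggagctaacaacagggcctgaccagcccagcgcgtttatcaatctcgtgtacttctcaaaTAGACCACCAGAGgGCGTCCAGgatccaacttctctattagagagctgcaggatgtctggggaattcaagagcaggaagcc
Wnt2b, upstream: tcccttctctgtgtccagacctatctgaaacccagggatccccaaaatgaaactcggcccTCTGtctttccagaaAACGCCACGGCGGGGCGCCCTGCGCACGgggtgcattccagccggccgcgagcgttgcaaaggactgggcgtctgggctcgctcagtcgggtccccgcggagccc
Axin2, exon: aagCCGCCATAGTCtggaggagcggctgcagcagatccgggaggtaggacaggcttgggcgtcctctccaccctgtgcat

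Few sites carried the letters that TCF/LEF factors bind. The words CTTTGAT and CTTTGAA, searched on both strands in 200 bp around the middle of each peak, were found in 2 of 24 member promoter peaks (8.33%), against 2.36% of all promoter shared peaks, and in 0 of 40 member distal sites, against 5.63% of all distal ones. Within the bounds of the peaks themselves, 1 member site held such a word, CTTTGAT in the Axin2 promoter printed above, and it did not touch a footprint of both replicates. In the RefSeq promoters, matched for 31 of the 42 genes, 3 of 39 held a word (Wnt5b, Wnt11 and Dkk1; 7.69%), against 8.64% of all autosomal ones, and none of these 3 stretches is an open start. These counts are too small to rank the classes.

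The other words searched occurred as follows. The GC box GGGCGG, a binding word of Sp factors, was in 17 of 24 member promoter peaks (70.8%), against 56.9% of all, and in 8 of 40 distal sites (20%), against 10.4%. The E-box CAGATG, bound by neuronal bHLH factors, was in 8 of 40 distal sites (20%), against 29.4% of all distal peaks. AP-1 words, TGACTCA or TGAGTCA, were in 2 of 24 promoter peaks (8.33%), against 1.79% of all, and in 2 of 40 distal sites (5%), against 5.45%. Counts of 2 allow no ranking against the background. The core word of the insulator protein CTCF, added after seeing the data, was in 7 of 40 (17.5%), against 13.9%.

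The rest of the pathway also differed by role in promoter height. Of 53 further genes 41 had an open promoter, again beside 58.2% of all genes. All 14 genes listed with the destruction complex and its kinases were open, including the regulators Tnks, Tnks2, Nkd1 and Nkd2. Their median heights were 6.72 in replicate 1 and 3.8 in replicate 2, above the medians of all open promoters. Nkd1 (2.95 and 1.22) and Nkd2 (2.37 and 1.11) were the lowest. Btrc, which recognises marked beta-catenin, had 13 and 7.44, the beta-catenin gene Ctnnb1 had 8.76 and 3.82, and the kinase gene Gsk3b had 7.79 and 4.17. Of the nuclear cofactors 8 of 9 were open, with Tle4, a corepressor of TCF factors, at 12.3 and 6.36, and Tle2 with a peak of 0.861 in replicate 1 only.

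Genes acting at the membrane or outside the cell had lower median heights, 2.28 and 2.04 for co-receptors and 2.15 and 1.8 for R-spondins and their receptors. Some single genes were higher, such as Ror1 (5.13 and 2.66), Kremen1 (4.78 and 2.36) and Lgr4 (4.04 and 3.49). The open counts of these lists lay near the 58.2% of all genes. Of the co-receptors 4 of 6 were open, Lrp6 with 2.31 and 2.24, while Lrp5 had 0.599 in replicate 1 only and Ror2 none. Of the R-spondins and their receptors 6 of 9 were open, with Znrf3, a ligase that removes Frizzled from the surface, at 6.03 and 2.38. Of the other secreted or membrane inhibitors 6 of 10 were open, with medians of 1.05 and 0.844. Wls, which carries Wnt proteins out of the cell, had 1.11 and 0.861, and of the known targets Myc (2.07 and 1.58) and Sp5 (0.802 and 0.484) were open and Ccnd1 had 1.35 in replicate 1 only.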

How the data were processed

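DNase-seq of mouse hippocampus was deposited for 2 samples on assembly mm10, per the labels. For each sample the authors deposited 2 peak lists, footprints and FDR intervals. Aligner, callers and thresholds were not given in the sources used here. Peak height was read as the deposited signal value, which within each sample steps in whole multiples of 0.00535 (replicate 1) or 0.0108 (replicate 2). The deposited FDR values were taken as q-values of their intervals, and footprints, whose p-value column is constant as deposited, were used by position. Depth is not given, so heights carry no interval. The longer peak list of each sample was used. A shared peak is the intersection (at least 1 bp) of peaks of both replicates, merged where they overlap, computed with pandas 2.3.3 and numpy 2.4.6. The FDR intervals were intersected with promoter windows by bedtools 2.31.1, and sequence was read with pysam 0.24.0. Annotation was GENCODE M21, and sequence came from RefSeq GRCm38.p6. The interval steps were tested on simulated peaks. No test was made, as there is 1 group. The members and lists, fixed by symbol, were chosen with earlier results of these data known. Values are given in full for the 3 highest open members of a class, members with a peak in 1 replicate only, the 3 with most and the 3 with densest distal sites, and the 5 highest distal sites.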

Additional observations from a re-analysis of the deposited data

How the results depend on the processing

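Counts depended on the lists more than on the annotation. Open promoters numbered 1 ligand in the shorter lists, 1 ligand, 3 effectors and 10 members at 50% overlap, 7 ligands with a 2000 bp window, and 9 ligands, 1 inhibitor and 28 members with a peak in at least 1 replicate (52.3%, 44.7%, 61.3% and 65.3% of all genes under these 4 settings). Leaving out a replicate gave 4 to 9 ligands, 7 to 9 receptors, 7 to 9 effectors, 0 to 1 inhibitors, 18 to 28 members and 42 to 46 other pathway genes, against 59.6% to 64.6% of all genes. Distal sites were found at 5 ligands, 0 receptors and 10 members in the shorter lists (25.4% of all genes), at 6 ligands, 0 inhibitors and 11 members without a flank (26%), at 7 receptors, 7 effectors, 2 inhibitors and 33 members with a 50 kb flank (71.9%), and at 4 receptors with 1000 bp from starts (47.2%). Leaving out a replicate gave 15 to 16 ligands, 1 to 6 receptors, 5 to 7 effectors, 2 to 3 inhibitors and 23 to 32 members, against 44.4% to 68.1% of all genes. Promoter footprints numbered 6 ligands with a 2000 bp window (59.7%), and without one replicate 3 to 6 ligands, 7 to 9 receptors, 7 to 8 effectors, 0 to 1 inhibitors and 17 to 24 members, against 57% to 62.6%. Median heights of ligands in replicate 1 were 0.652 with a 200 bp window, 2.77 (replicate 2, 1.51) with 2000 bp and 0.693 by the mean over the window's peaks, by which effectors had 2.53 in replicate 1. The cause of these changes was not tested. CpG-rich promoters and the CTCF word were added after seeing the data. No paired analysis was possible because the series has 1 group. Depth is unknown, so a missing peak is not shown to be absent accessibility.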
